A study of Mus musculus with 6 samples.

Results

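The circadian clock factors described here are *Arntl*, *Clock*, *Per1*, *Per2*, *Cry1*, *Cry2*, *Nr1d1*, *Nr1d2*, *Dbp* and *Tef*, chosen by gene symbol, 10 of the 19225 genes with values. They were measured in CD11b+ cells, a fraction enriched for microglia, from the brains of male mice that had not been stressed. There were 3 libraries labelled Cnr1+/+ (genotype wt/wt, strain given as C57BL6/J) and 3 labelled Cnr1-/- (genotype d/d, strain given as Cnr1 tm1Zim, a constitutive knockout of the cannabinoid receptor CB1 made with a neomycin cassette in the coding region and backcrossed to C57BL/6J), 1 library per mouse. The labels give an age of 3 months for all 6 mice, whereas the study's methods give a younger range and describe the mice as littermates. All cells were obtained after perfusion, mechanical dissociation, Percoll and magnetic beads, and the libraries were made from the 3′ ends of polyadenylated RNA. The methods describe habituation to a reversed light-dark cycle before the experiments, and the hour at which these 6 mice were killed is not given in the sources used here. The comparison asks which genes differ in microglia that developed without CB1.

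The clock is a feedback loop of transcription. ARNTL (also called BMAL1) and CLOCK bind E-boxes together and drive *Per*, *Cry*, *Nr1d1*, *Nr1d2*, *Dbp* and *Tef*; PER and CRY proteins then repress ARNTL and CLOCK, and the nuclear receptors NR1D1 and NR1D2 (REV-ERB alpha and beta) repress *Arntl* through RORE elements. DBP and TEF are PAR bZIP activators that bind D-boxes. In a running clock, *Arntl* and the genes driven from E-boxes, such as *Nr1d1* and *Dbp*, peak at opposite times of day. PER and CRY bind no DNA by themselves and are co-repressors, although they are grouped here with the transcription factors. In macrophages and microglia, components of the clock are known to limit inflammatory gene expression.

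The promoters of *Arntl*, *Per1* and *Tef* are shown because these are 3 of the 4 genes with the lowest p among the clock factors and their windows hold letters of the RORE or the E-box. Capitals mark a match, 5′ to 3′, to the RORE letters ANTAGGTNA in *Arntl* or to the E-box CACGTG in *Per1* and *Tef*. The sequences are those of RefSeq (GRCm38.p6), at chr7:113207411-113207560, chr11:69098729-69098878 and chr15:81811226-81811375, all on the plus strand.
Arntl: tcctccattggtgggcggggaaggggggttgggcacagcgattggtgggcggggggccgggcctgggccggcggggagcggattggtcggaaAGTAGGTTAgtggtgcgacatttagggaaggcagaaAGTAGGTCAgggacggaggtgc
Per1: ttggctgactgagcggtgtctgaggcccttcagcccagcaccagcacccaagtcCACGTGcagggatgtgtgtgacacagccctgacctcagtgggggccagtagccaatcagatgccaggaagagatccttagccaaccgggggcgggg
Tef: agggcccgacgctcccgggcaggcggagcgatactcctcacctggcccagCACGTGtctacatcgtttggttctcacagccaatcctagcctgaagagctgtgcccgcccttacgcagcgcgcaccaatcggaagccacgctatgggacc

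The RORE letters matched at 2 places in *Arntl*, 1 beginning 8 bases before the annotated start at 113207511 and 1 beginning 28 bases after it. The E-box shown began 166 bases before the annotated start at 69098949 in *Per1* and 138 bases before that at 81811414 in *Tef*. Both of these starts lie within the gene span of the deposited annotation and not at its beginning. A further E-box of *Tef*, not shown, began 127 bases before another annotated start, near the beginning of the gene (81802546 to 81802551). Windows of 250 bases before to 50 bases after a start were searched on both strands, and 9 of the 10 clock factors had at least 1 such window, 14 windows in all, *Per2* being the gene without one. The E-box occurred in 4 of the 14 windows (*Cry1*, *Per1* and both of *Tef*) and in 7.15% of the 32851 windows of all genes. Its variant CACGTT occurred in 3 of the 14 (*Cry1*, *Cry2* and *Nr1d1*) and in 4.68% of all windows. The D-box letters TTANNTAA occurred in 1 of the 14, of *Tef* (6.0% of all windows), and the RORE letters in 2 of the 14, both of *Arntl* and sharing most of their bases (2.04% of all windows). No match overlapped a match to another of these motifs. These are matches of letters, and the libraries do not show which start was used.

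The values, made by the authors, are CPM (cpm, reads scaled to a common library size) with TMM scaling, and the step between low values, taken as 1 read, corresponded to a depth of 7708812 to 10723826 reads per library. Replicates are separate mice, 3 per label, and 0.1 is the lowest two-sided p that exact permutation of 3 and 3 libraries can reach. *Cnr1* was listed at 0 in all 3 libraries labelled Cnr1+/+ and at 1.41, 1.21 and 1.79 cpm in those labelled Cnr1-/-, against its label. Reads from the 3′ end do not check a cassette in the coding region, and all directions below are those of the labels. Sums of 10 microglial markers (for example *Cx3cr1*, *P2ry12* and *Tmem119*) were 14547 to 16851 cpm with the Cnr1+/+ label and 15668 to 16734 cpm with the Cnr1-/- label. The 8 neuron markers summed to 31.7 to 37.4 cpm, the 7 astrocyte markers to 299 to 551 cpm, the 7 oligodendrocyte markers to 423 to 856 cpm and the 6 endothelial markers to 16.5 to 27.1 cpm. For macrophages of the brain borders, 6 markers summed to 93.6 to 142 cpm. The library labelled Cnr1-/- replicate 2 stood apart, with 4067 cpm of 9 neutrophil markers and 2342 cpm of 7 erythrocyte markers, against 266 to 524 cpm and 136 to 237 cpm in the other 5.

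In the libraries labelled Cnr1-/-, *Arntl* was higher and *Per2* lower, by more than 2-fold each. Their groups did not overlap, as was so for 10.1% of all genes. Both had a mean under 10 cpm and were tested by limma only without a filter on low values. There the nominal p was under 0.05 for each, and *Per2* kept this in 4 of 10 alternatives. *Per1* was higher in 2 of the 3 libraries. *Tef* and *Dbp*, also without overlap, were lower by smaller factors. *Clock*, *Nr1d1*, *Nr1d2*, *Cry1*, *Cry2* and *Dbp* had a nominal p above 0.05 in the limma fit of all 6 libraries without a filter. No clock factor passed a threshold of 0.1 after adjustment over all genes (0 of 4 tested, 0 of 10 without a filter on low values), where 0.0901% of the genes tested, and 0.0728% without the filter, passed it with more than a 1.5-fold difference.

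**Figure D1:**
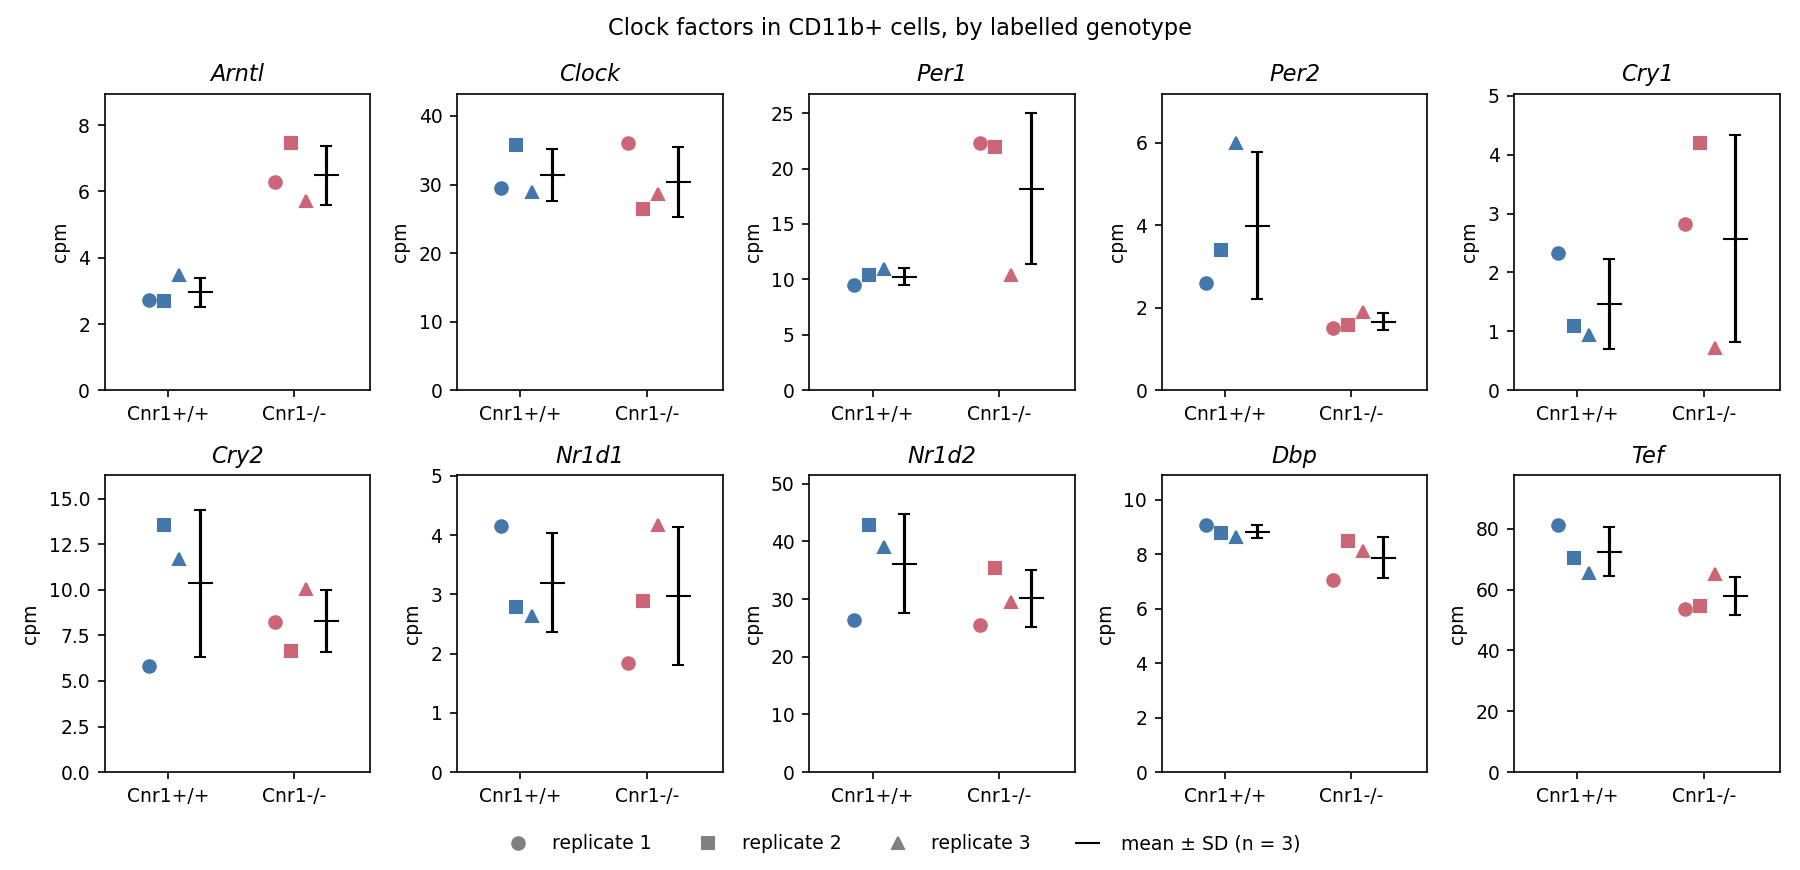
Values of the 10 clock factors (cpm, linear axes from 0) in the 3 libraries labelled Cnr1+/+ (blue) and the 3 labelled Cnr1-/- (red); symbols give the replicate, and bars the mean ± SD (n = 3). *Arntl* lay between 5.72 and 7.46 cpm with the Cnr1-/- label and between 2.69 and 3.47 cpm with the Cnr1+/+ label, whereas *Per2*, *Dbp* and *Tef* were lower with the Cnr1-/- label without overlap.

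Only *Clock*, *Per1*, *Nr1d2* and *Tef* reached a mean of 10 cpm, the minimum used for testing. The study's methods set a minimum average coverage of 10 without a unit, which was read here as cpm. Among these 4, limma on log2 (cpm + 0.1) gave a nominal p under 0.05 for *Per1* (higher) and *Tef* (lower), where 6.02% of the 6659 genes tested had such a p, 5.09% higher and 0.931% lower. The groups did not overlap for 1 of the 4, *Tef*, against 11% of the genes tested (8.85% higher and 2.13% lower). The median log2 difference was -0.15 over the 4 genes and 0.08 over all tested genes. Without the minimum, 4 of the 10 clock factors had a nominal p under 0.05, *Arntl*, *Per1*, *Per2* and *Tef*, against 5.17% of 19225 genes (3.68% higher and 1.48% lower). The median was then -0.16 over the 10 and 0.07 over all genes. The groups did not overlap for 4 of the 10 (*Arntl* higher, *Per2*, *Dbp* and *Tef* lower), against 10.1% of all genes (6.58% higher and 3.57% lower). The adjusted p of the 10 lay between 0.754 and 0.994 in this limma fit. Of the 60 values of the 10 genes, 59 were whole numbers of reads (within 0.01 reads), the exception being *Tef* in Cnr1-/- replicate 1. In bulk samples, fewer cells of a type and less RNA per cell cannot be told apart.

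**Figure D2:**
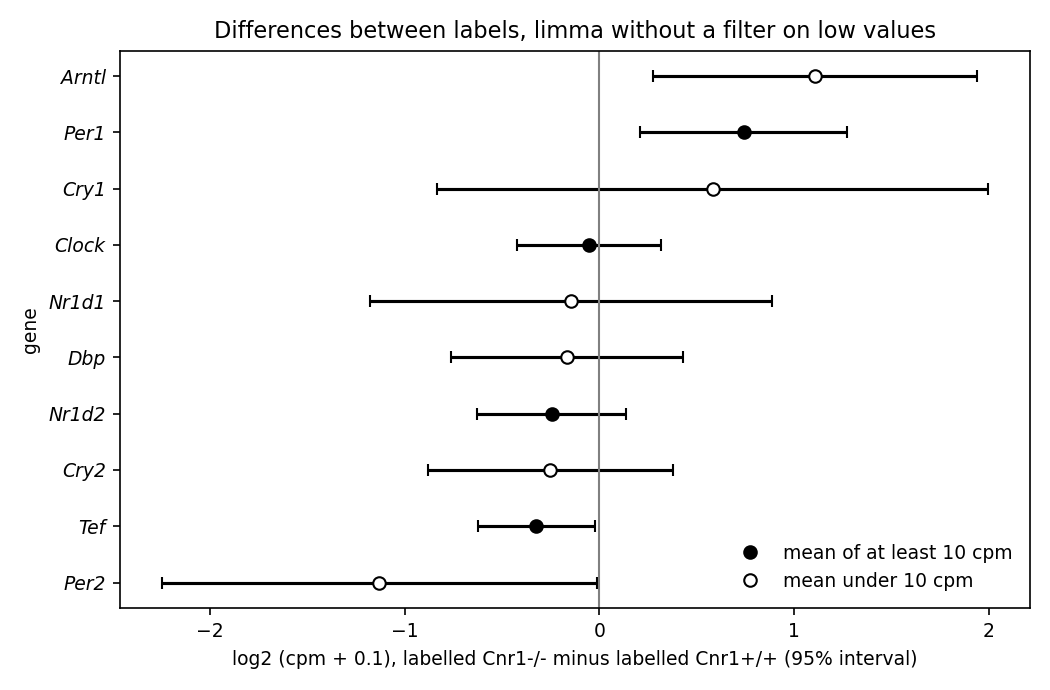
Difference in log2 (cpm + 0.1) between libraries labelled Cnr1-/- and Cnr1+/+ for the 10 clock factors, with 95% intervals, from 1 limma fit without a filter on low values; open circles mark genes with a mean under 10 cpm. The intervals of *Arntl* (0.28 to 1.94), *Per1* (0.21 to 1.27), *Tef* (-0.63 to -0.02) and *Per2* (-2.25 to -0.01) lie on 1 side of 0.

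*Arntl* (chromosome 7 of mm10, 113207465 to 113314126), the positive limb of the loop, was measured at 2.72, 2.69 and 3.47 cpm in the libraries labelled Cnr1+/+ and at 6.28, 7.46 and 5.72 cpm in those labelled Cnr1-/-. Every value with the Cnr1-/- label lay above every value with the Cnr1+/+ label. The mean of the Cnr1+/+ label was 2.96 ± 0.440 cpm (SD, n = 3) and that of the Cnr1-/- label 6.49 ± 0.887 cpm (SD, n = 3), 2.19 times as high. The values rest on 21, 27 and 33 reads against 58, 80 and 48 reads. The log2 difference was 1.11 (exact permutation, two-sided, p = 0.1, which is the lowest this design can reach). As *Arntl* was below the minimum mean, it was tested by limma only without the filter, with a standard error of 0.41 and a nominal p of 0.0103 (0.803 after adjustment). In that fit the difference stayed between 1.00 and 1.22 and the nominal p between 0.00924 and 0.0406 across the 6 fits that each omitted 1 library, alternatives chosen after seeing the data. Without the library rich in neutrophil and erythrocyte RNA it was 1.00.

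*Clock* (chromosome 5, 76209868 to 76304792), the partner of *Arntl*, had 29.4, 35.7 and 28.9 cpm with the Cnr1+/+ label and 36.1, 26.4 and 28.6 cpm with the Cnr1-/- label. The Cnr1-/- values spanned all those of the Cnr1+/+ label. Its log2 difference was -0.05 (95% interval -0.42 to 0.32), and limma gave a nominal p of 0.771 (0.982 after adjustment). The direction turned when 1 library was left out, with 0.04 without Cnr1+/+ replicate 2 and 0.04 without Cnr1-/- replicate 2.

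*Per1* (chromosome 11, 69095217 to 69109960), an early-induced repressor of the loop whose gene also responds to glucocorticoids and cyclic AMP, had 9.47, 10.4 and 10.9 cpm with the Cnr1+/+ label. With the Cnr1-/- label it had 22.3, 21.9 and 10.4 cpm. Replicates 1 and 2 of the latter were thus high, whereas replicate 3 lay among the Cnr1+/+ values, so the groups overlapped (two-sided exact permutation p = 0.3). The means were 10.3 ± 0.741 cpm (SD, n = 3) and 18.2 ± 6.78 cpm (SD, n = 3). On the log2 scale the difference was 0.74 (95% interval 0.17 to 1.31), and limma gave a nominal p of 0.0123 (0.705 after adjustment). Without Cnr1-/- replicate 3 the difference was 1.10 (limma adjusted p = 0.0799). In that fit 30 genes passed the adjusted threshold with more than a 1.5-fold difference, against 6 with all libraries. The same omission without a filter on low values gave a limma adjusted p of 0.775. Without Cnr1-/- replicate 1 it was 0.55 with a nominal p of 0.0981, and without Cnr1-/- replicate 2 it was 0.57 with a nominal p of 0.0825.

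*Tsc22d3*, which encodes the glucocorticoid-induced leucine zipper, had 30.1, 29.9 and 36.8 cpm against 50.6, 62.3 and 34.0 cpm, with Cnr1-/- replicates 1 and 2 high and replicate 3 among the Cnr1+/+ values, as for *Per1*. *Fkbp5*, the glucocorticoid-responsive co-chaperone of the glucocorticoid receptor, had 55.1, 25.4 and 33.2 cpm against 89.6, 70.7 and 88.1 cpm, and was high in replicate 3 of the Cnr1-/- label as well. The highest *Tsc22d3* value was that of Cnr1-/- replicate 2, the library rich in neutrophil and erythrocyte markers. The log2 difference of *Tsc22d3* was 0.56, with a limma p of 0.00614 (0.650 after adjustment) and a two-sided exact permutation p of 0.2. That of *Fkbp5* was 1.19 (two-sided exact permutation p = 0.1, the lowest this design can reach). *Fos*, an early gene of cell isolation, lay between 0.373 and 2.33 cpm and overlapped between labels. The 8 early genes of isolation (among them *Jun*, *Egr1* and *Dusp1*) summed to 117 to 126 cpm with the Cnr1+/+ label and to 123 to 144 cpm with the Cnr1-/- label, the highest sum being that of Cnr1-/- replicate 3. The parts of glucocorticoids and of cell isolation in the values of *Per1* were not tested.

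**Figure D3:**
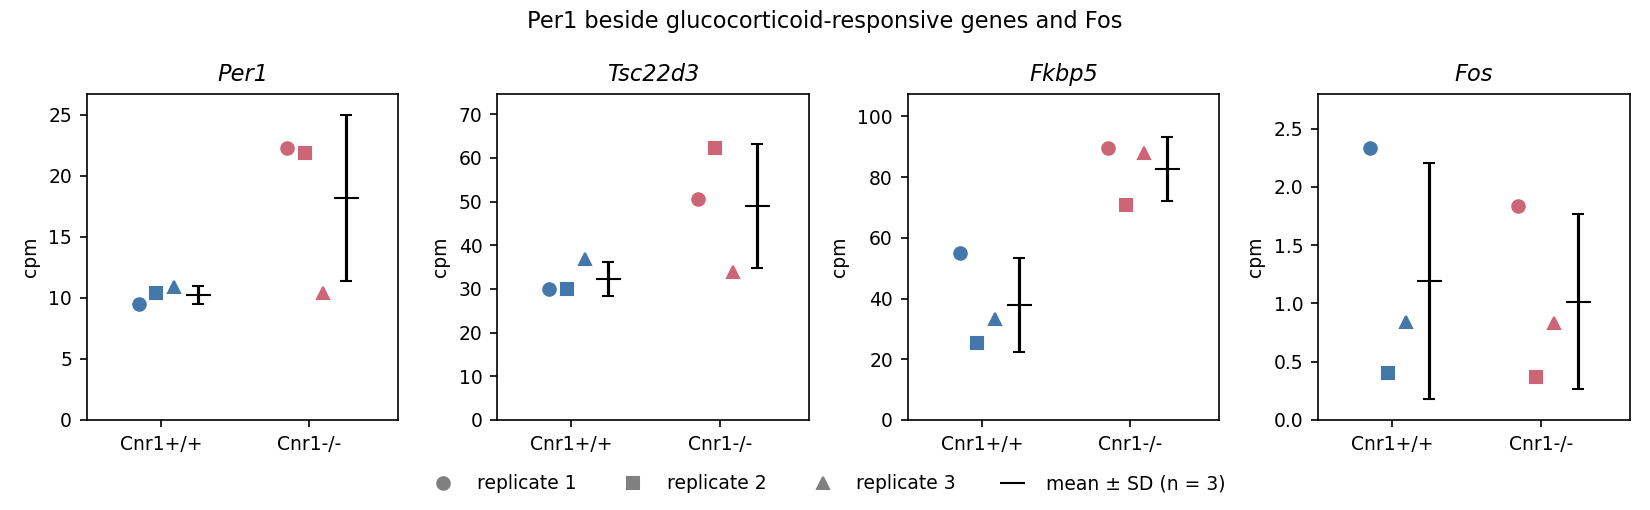
*Per1* beside *Tsc22d3*, *Fkbp5* and *Fos* (cpm, linear axes from 0) in each library; symbols give the replicate, and bars the mean ± SD (n = 3). In Cnr1-/- replicate 3, *Per1* (10.4 cpm) and *Tsc22d3* (34.0 cpm) lay among the Cnr1+/+ values, whereas *Fkbp5* (88.1 cpm) did not.

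*Per2* (chromosome 1, 91415982 to 91459324), the other PER repressor of the set, went the other way from *Per1*. It had 2.59, 3.39 and 5.99 cpm with the Cnr1+/+ label and 1.52, 1.59 and 1.91 cpm with the Cnr1-/- label. All 3 values with the Cnr1-/- label lay below the lowest with the Cnr1+/+ label, and the spread in the latter group came mainly from replicate 3. The means were 3.99 ± 1.78 cpm (SD, n = 3) and 1.67 ± 0.209 cpm (SD, n = 3), based on 20, 34 and 57 reads against 14, 17 and 16 reads. On the log2 scale the difference was -1.13 (exact permutation, two-sided, p = 0.1, which is the lowest this design can reach). In the limma fit without a filter the nominal p was 0.0474 (0.954 after adjustment). With each library left out the difference stayed between -1.39 and -0.80, and the nominal p was under 0.05 in 1 of the 6 fits, without Cnr1+/+ replicate 1, and 0.205 without Cnr1+/+ replicate 3. Without Cnr1-/- replicate 2, the library rich in blood cell markers, the difference was -1.10.

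The cryptochromes, which repress together with PER, did not pass the test. *Cry1* (chromosome 10, 85131700 to 85185064) had 2.33, 1.10 and 0.947 cpm against 2.81, 4.20 and 0.716 cpm, or between 6 and 45 reads per library. As with *Per1*, Cnr1-/- replicates 1 and 2 held the highest values, but here replicate 3 was the lowest of all 6. Its log2 difference was 0.58 (95% interval -0.84 to 2.00 without the filter, two-sided exact permutation p = 0.6), and it was 0.09 without Cnr1-/- replicate 2 and 1.29 without Cnr1-/- replicate 3. *Cry2* (chromosome 2, 92403646 to 92434043) had 5.84, 13.6 and 11.7 cpm against 8.23, 6.62 and 10.02 cpm. Cnr1+/+ replicate 1 was the lowest library, and the groups overlapped. The log2 difference was -0.25 (95% interval -0.88 to 0.38), and without Cnr1+/+ replicate 1 it was -0.62 with a limma p of 0.0471 (0.973 after adjustment, no filter). Omitting other libraries moved *Cry2* either way. It was -0.02 (limma p of 0.967) when Cnr1+/+ replicate 2 was omitted, -0.12 when Cnr1+/+ replicate 3 was and -0.10 when Cnr1-/- replicate 2 was. It was -0.26 when Cnr1-/- replicate 1 was omitted and -0.40 when Cnr1-/- replicate 3 was.

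The REV-ERB genes, which encode the repressors of *Arntl*, were not called either. *Nr1d1* (chromosome 11, 98767932 to 98775333) had 4.15, 2.79 and 2.63 cpm against 1.84, 2.89 and 4.17 cpm, a log2 difference of -0.15 (95% interval -1.18 to 0.89). The highest and the lowest library both carried the Cnr1-/- label, and the sign turned without Cnr1+/+ replicate 1 (0.05) or Cnr1-/- replicate 1 (0.15). *Nr1d1* shares 1075 bases at its 3′ end with *Thra*, a thyroid hormone receptor gene on the opposite strand. *Thra* had 36.1, 38.2 and 24.8 cpm against 29.99, 28.8 and 43.3 cpm. How strand was used in counting is not given in the sources used here, so the reads of the shared part may not be separated. Antisense or other unlisted genes of the annotation also lie within or across *Arntl*, *Clock*, *Cry2* and *Tef*.

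*Nr1d2* (chromosome 14, 18204054 to 18239127) had 26.5, 42.9 and 39.0 cpm with the Cnr1+/+ label and 25.4, 35.3 and 29.6 cpm with the Cnr1-/- label. Replicates 2 and 3 of the Cnr1+/+ label were the highest libraries and replicate 1 was close to the lowest. The log2 difference was -0.24 (95% interval -0.64 to 0.15), and limma gave a nominal p of 0.214 (0.900 after adjustment). Without Cnr1+/+ replicate 1 it was -0.45 with a p of 0.0214 (0.813 after adjustment). It was -0.11 (p of 0.627) when Cnr1+/+ replicate 2 was omitted and -0.13 (p of 0.554) when Cnr1-/- replicate 1 was. Cnr1+/+ replicate 1 was thus the library whose omission brought *Cry2* and *Nr1d2* under a nominal p of 0.05.

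Of the PAR bZIP activators, *Tef* (chromosome 15, 81802421 to 81826863) had 81.3, 70.4 and 65.5 cpm with the Cnr1+/+ label and 53.8, 54.7 and 65.0 cpm with the Cnr1-/- label. The groups did not overlap, although Cnr1-/- replicate 3 came within 0.531 cpm of the nearest Cnr1+/+ library. The means were 72.4 ± 8.09 cpm (SD, n = 3) for the Cnr1+/+ label and 57.8 ± 6.22 cpm (SD, n = 3) for the Cnr1-/- label, which was 0.798 of the former. The log2 difference was -0.32 (95% interval -0.62 to -0.02), and limma gave a nominal p of 0.0354 (0.809 after adjustment). The nominal p lay between 0.0189 and 0.131 when each library was left out, and it exceeded 0.05 without Cnr1+/+ replicates 1 (0.131) or 2 (0.0525) and without Cnr1-/- replicates 1 (0.122) or 2 (0.0983).

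*Dbp* (chromosome 7, 45705088 to 45710203), a direct output of ARNTL and CLOCK, had 9.08, 8.78 and 8.62 cpm against 7.04, 8.49 and 8.11 cpm. The groups did not overlap, but the gap between *Dbp* values of the labels was only 0.138 cpm. The means were 8.83 ± 0.232 cpm (SD, n = 3) and 7.88 ± 0.752 cpm (SD, n = 3), from 240 and 224 reads in all. The log2 difference of -0.17 had a 95% interval of -0.76 to 0.43 and a limma p of 0.576 without a filter (0.979 after adjustment). With each library left out, the difference in that limma fit lay between -0.22 and -0.09, with a nominal p between 0.448 and 0.778. *Dbp* shares 737 bases at its 3′ end with *Sphk2* on the opposite strand, which had 20.8, 20.2 and 27.7 cpm against 25.2, 27.0 and 26.6 cpm.

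Among the 6 pairs of clock factors tested, no shared order of libraries held after adjustment. The pairs were chosen from how the loop works, and log2 values were correlated over the 6 libraries with exact permutation tests. Over the pairs, 0 had an adjusted p under 0.05 and 1 had an unadjusted p under 0.05, by rank only. *Dbp* and *Tef* were the most alike, with a Pearson r of 0.75 (exact permutation p = 0.0778, adjusted 0.271) and a Spearman rho of 0.94 (exact permutation p = 0.0167, adjusted 0.1). The r was 0.27 without the 2 libraries farthest from the median of *Dbp*, where 4 libraries over a narrower range remained, and 0.43 for deviations from the group means. *Arntl* and *Dbp*, whose groups each did not overlap between labels, had a Pearson r of -0.66 (exact permutation p = 0.128, adjusted 0.271) and a rho of -0.77 (exact permutation p = 0.103, adjusted 0.308). Without the 2 farthest libraries that r was -0.90, but for deviations from the group means it was 0.13, so no direction is read from this pair beyond the difference between labels. *Arntl* and *Nr1d1*, a target and its repressor, had a Pearson r of -0.28 (exact permutation p = 0.563, adjusted 0.675), and *Nr1d1* and *Nr1d2* had -0.08 (exact permutation p = 0.857, adjusted 0.857). For *Nr1d1* and *Dbp* it was 0.66 (exact permutation p = 0.167, adjusted 0.271). *Per1* and *Per2* had -0.64 (exact permutation p = 0.181, adjusted 0.271). Without the 2 libraries farthest from the median of the first gene, r was -0.44 for *Arntl* and *Nr1d1*, -0.94 for *Nr1d1* and *Nr1d2*, 0.83 for *Nr1d1* and *Dbp*, and 0.60, of the opposite sign, for *Per1* and *Per2*. For deviations from the group means, r was -0.39 for *Arntl* and *Nr1d1* and -0.18 for *Nr1d1* and *Nr1d2*. It was 0.76 for *Nr1d1* and *Dbp*, and -0.11 for *Per1* and *Per2*. No direction is read from these 4 pairs, in which *Nr1d1* (mean 3.08 cpm) and *Per2* (mean 2.83 cpm) rest on few reads.

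As a description over 6 libraries and 6659 genes, with no test, the genes whose log2 values followed a clock factor most closely were *Rasal2* and *Msl3* for *Clock* (Pearson r 0.98 and 0.95) and *Nt5c* and *Hax1* for *Per1* (0.98 and 0.98). They were *Washc4* and *Maf* for *Nr1d2* (0.99 and 0.99) and *Ank3* and *Dhrs1* for *Tef* (0.99 and 0.98). None of these 8 genes belongs to the clock lists used here.

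**Figure D4:**
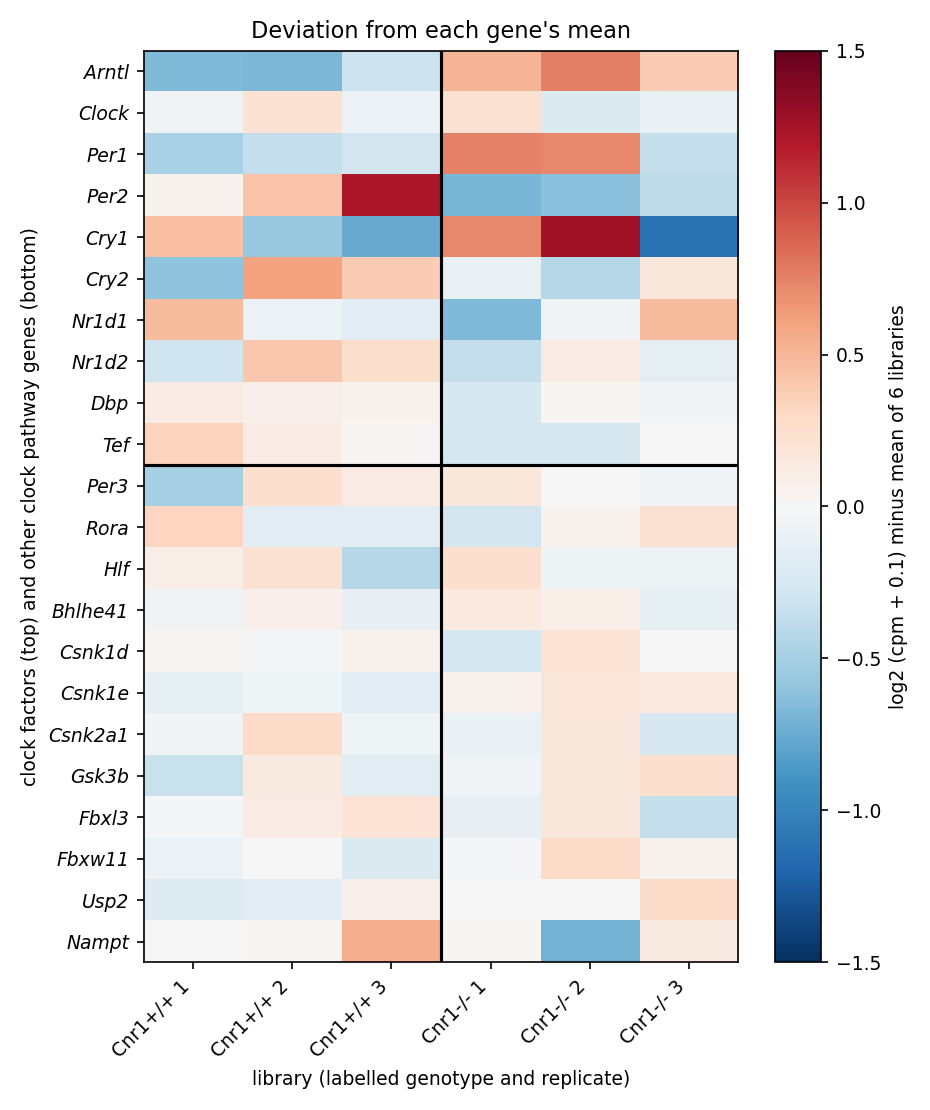
Deviation of log2 (cpm + 0.1) from each gene's mean over 6 libraries, for the 10 clock factors (top) and the 12 other clock pathway genes at a mean of 10 cpm or more (bottom); columns are libraries by label and replicate, red is higher and blue lower. *Arntl* is higher and *Per2* lower in all 3 libraries labelled Cnr1-/-. The log2 differences of the 12 pathway genes lay between -0.37 and 0.26, and those of the 4 clock factors at or above the same mean between -0.32 and 0.74.

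Of 26 other genes of the clock pathway, 23 had values and 12 were tested. *Csnk1e*, a casein kinase that phosphorylates PER proteins and marks them for degradation, was the only one with a nominal p under 0.05, against 6.02% of all tested genes. It had 207, 220 and 205 cpm with the Cnr1+/+ label and 240, 261 and 254 cpm with the Cnr1-/- label. The groups did not overlap, and the log2 difference was 0.26 (95% interval 0.02 to 0.49), and limma gave a nominal p of 0.0362 (0.809 after adjustment). The call was lost when each library was centred on its median (0.18, with a nominal p of 0.0726) and, with the scaling unchanged, with eBayes without trend (0.26, with a nominal p of 0.115). It was also lost in 4 of the 6 fits of *Csnk1e* that omitted 1 library, with a p of 0.0552 or 0.0618 when Cnr1+/+ replicate 1 or 3 was omitted, and of 0.116 or 0.0915 when Cnr1-/- replicate 2 or 3 was omitted. The other 11 had nominal p above 0.05, 7 with differences above 0 and 4 below (4 above and 7 below with median centring or quantile normalisation, 3 above and 8 below with rescaling without mitochondrial genes), and the median over the 12 was 0.07 against 0.08 over all tested genes.

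The 3 most abundant genes of this list after *Csnk1e* overlapped between labels. *Usp2*, a deubiquitinase, had a log2 difference of 0.19 (95% interval -0.07 to 0.44), *Bhlhe41*, an E-box repressor, 0.07 (-0.21 to 0.35), and *Gsk3b*, a kinase of several clock proteins, 0.24 (-0.07 to 0.55). *Per3* and *Hlf*, the remaining PER and PAR bZIP genes, had differences of 0.09 (-0.40 to 0.58) and 0.07 (-0.50 to 0.64). Neither kept its direction, as *Per3* was -0.14 when Cnr1+/+ replicate 1 was omitted, and *Hlf* was -0.13 or -0.04 when Cnr1+/+ replicate 3 or Cnr1-/- replicate 1 was. With rescaling without mitochondrial genes *Per3* was -0.009 and *Hlf* -0.03. *Hlf* was also -0.005 with median centring and -0.04 with quantile normalisation. Among the 11 genes below the minimum mean, only *Timeless*, which acts in DNA replication and is named after a clock gene of flies, had groups that did not overlap, 1 of 11 where 10.1% of all genes (6.58% higher) had none. It had 2.21, 3.79 and 4.42 cpm against 5.74, 6.53 and 6.68 cpm, a log2 difference of 0.90 with a limma p of 0.0336 without a filter (0.927 after adjustment).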

How the data were processed

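CD11b+ cells of 6 mice, 3 per genotype label, were compared, with groups from the sample titles. Reads were trimmed by the authors and aligned to mm10 with STAR, then quantified per gene with the expectation-maximisation method of Partek and scaled by TMM. The deposited values are CPM with this scaling, and the listed genes make up 50.1% to 59.1% of the scaled total of a library. The value of 1 read was derived from the lowest steps, and 82.5% to 84.9% of values above 0 were whole reads (within 0.01), too few for count tests. A value of 0 allows 3 reads, 0.280 to 0.389 cpm (counting error only). The deposited stop position lies 1 base beyond the GENCODE vM21 end for all 10 genes, and ends were printed 1 lower.

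Labels were compared with limma 3.58.1 in R 4.3.3 (trend, genotype only, Benjamini-Hochberg) on log2 (cpm + 0.1) for genes whose mean reached 10 cpm. A fold change on this scale understates that of low genes. Single genes were compared by exact permutation with scipy 1.17.1. Calls used a nominal p below 0.05 or, more strictly, an adjusted p below 0.1 beyond a 1.5-fold difference. The limma steps were tested on simulated data, only for genes at or above the minimum mean. The fit without a filter, the permutation tests and the correlations of pairs were not. Alternatives were other pseudocounts, filters, scalings and variance models, a replicate block, and omission of single libraries; those without a filter on low values, other than the plain fit, were added after seeing the data. The clock factors and gene lists were chosen with earlier results of these data known. Named genes are the 10 factors, pathway genes with a nominal p under 0.05, without overlap or among the 4 most abundant, overlapping genes, *Cnr1*, *Fkbp5*, *Tsc22d3*, *Fos*, and the 2 genes most alike to each tested factor; *Per3* and *Hlf* were added after their values were seen. Figures were drawn with matplotlib 3.10.9.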

Additional observations from a re-analysis of the deposited data

How the results depend on the processing

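The number of clock factors with a nominal p under 0.05 (2) was 4 with no filter and 1 with eBayes without trend, and it ranged from 0 to 2 over the fits that left out one library, with 0 without Cnr1-/- replicate 1 or 2 and 1 without Cnr1+/+ replicate 2. That of other pathway genes (1) was 2 with no filter and 0 with each of median centring, quantile normalisation, rescaling without mitochondrial genes and eBayes without trend, and ranged from 0 to 2 with one library left out. Without Cnr1+/+ replicate 2, *Gsk3b* (0.37, with a p of 0.0314) was called beside *Csnk1e*, and without Cnr1+/+ replicate 3 the 1 gene called was *Usp2* with a p of 0.0442. Of the 6659 genes tested, 401 were below 0.05 (993 with no filter), from 252 without Cnr1-/- replicate 2 to 600 without Cnr1+/+ replicate 3. Of the 401, 339 were higher and 62 lower, against 197 and 178 with median centring, 163 and 197 with quantile normalisation and 142 and 210 with rescaling. Genes with an adjusted p under 0.1 and a fold change over 1.5 numbered 6, and 14 with no filter, 0 under the 3 scalings and eBayes without trend, and 1 to 30 with one library left out. The 30 came without Cnr1-/- replicate 3, the only setting in which a clock factor (*Per1*) had an adjusted p under 0.1.

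*Arntl*, *Per1* and *Cry1* stayed higher and *Per2*, *Cry2*, *Nr1d2*, *Dbp* and *Tef* lower in every alternative that gave a value. *Nr1d1* turned to 0.05 without Cnr1+/+ replicate 1 and 0.15 without Cnr1-/- replicate 1. The log2 fold change of *Clock* turned to 0.044 without Cnr1+/+ replicate 2 and 0.041 without Cnr1-/- replicate 2, and lay between -0.18 and 0.04 over the libraries left out; fewer samples were used there. *Tef* had a p of 0.0761 with eBayes without trend. *Arntl* kept a nominal p under 0.05 in all 10 alternatives to the fit without a filter, and *Per2* in 4 of 10. With that fit and the replicate block, *Per2* had a nominal p of 0.05001. The cause of these shifts was not tested. Same-numbered libraries had correlations of deviations from the group means between -0.06 and -0.03, and differently numbered ones between -0.004 and 0.04. As these deviations sum to 0 within each label, the correlations cannot tell whether the replicate numbers pair the mice. With the replicate number as a block, 2 clock factors and 1 pathway gene had a nominal p under 0.05, as did 421 of all genes, and 8 genes passed the adjusted threshold. The tests of pairs were not run with single libraries left out, which leaves 5, or with quantile normalisation, which did not include every clock factor.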
